A study of Mus musculus with 9 samples.

Results

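The 9 genes described here encode enzymes that burn fatty acids and ketone bodies in mitochondria: Cpt1a and Cpt2 of the carnitine shuttle, Acadm, Acadl, Hadha and Hadhb of beta-oxidation, and Bdh1, Oxct1 and Acat1 of ketone body use. They were chosen by symbol as enzymes of alternative fuel use when glycolysis is blocked, by a rule that named no measured value but was written with earlier results of these data known, and all 9 were found among the 55487 genes of the count table. All 9 also passed the filter on low counts, which left 21049 genes for testing. RNA-seq was done on retinas from C57BL/6J mice, wild type and at postnatal day 28, kept as whole explants for 48 h in Neurobasal-A medium with 5 mM glucose, B27, N2 and antibiotics. The control group had 5 libraries and no further agent, and the 2-DG group had 4 libraries and 20 mM 2-deoxyglucose (2-DG), a glucose analogue that blocks early steps of glycolysis. The protocol text of all 9 samples, controls included, names 2-DG in the medium, so its absence from the control medium is taken from the sample titles and treatment labels. Before RNA extraction the explants of both groups spent 1 h in Krebs' Ringer medium. The libraries are called biological replicates of 1 batch, but the number of retinas or animals behind each is not given, so p-values measure the spread between these libraries.

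Fatty acids enter mitochondria as carnitine esters, and beta-oxidation then shortens them in repeated rounds that each release acetyl-CoA. Ketone bodies are made from acetyl-CoA by a separate set of enzymes, chiefly in liver, and are carried by monocarboxylate transporters to tissues that turn them back into acetyl-CoA. In the eye, photoreceptors rely heavily on glycolysis, while the retinal pigment epithelium (RPE) is known for fatty acid oxidation.

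Library totals ran from 11318087 to 51802230 estimated counts, and each member held between 148 and 8852 counts in every library. Whether depth limits the members was not tested. The edgeR fit gave a common biological coefficient of variation of 51.5%, so an adjusted p above the threshold does not show that a gene was unchanged. Control replicates 2 and 5 and 2-DG replicates 3 and 4 stood apart in composition. The summed level of 8 rod markers was 41430 CPM (counts scaled to the same total in each library) in control replicate 2 and 4765 to 15715 CPM in the others, so all libraries held rod RNA. Cone markers, 8 in number, summed to 585 CPM in control replicate 2, 811 CPM in 2-DG replicate 3 and 73.8 to 132 CPM elsewhere. The summed level of 10 RPE markers was 294 CPM in 2-DG replicate 3, 35.9 CPM in 2-DG replicate 4 and 3.57 to 15.6 CPM elsewhere. Rpe65, which defines this cell type, was at 6.67 CPM in 2-DG replicate 3 and at 0.315 CPM or less in the others, although the RPE had been removed at dissection. The summed level of 9 vessel and pericyte markers was 2652 CPM in 2-DG replicate 4, 2194 CPM in control replicate 5 and 414 to 1225 CPM elsewhere. Müller glia markers summed to 3687 ± 2058 CPM (n = 5) in controls and 1851 ± 1191 CPM (n = 4) with 2-DG, with overlap between groups and all 4 2-DG libraries below the control mean. Their highest sum was 6827 CPM in control replicate 5, beside 843 to 4224 CPM elsewhere. At an unadjusted p under 0.05 the edgeR test described below took 3 of 8 Müller glia markers (lower with 2-DG) and 4 of 6 tested RPE markers (higher). It took 1 of 8 cone and 1 of 4 astrocyte markers, and 0 of the rod, vessel, microglia, skeletal muscle and lens markers. Over all genes tested it took 7.25% (2.42% higher and 4.83% lower). No marker had an adjusted p under 0.05 in this test. In alternative settings the smallest adjusted p, from edgeR, DESeq2 or limma, was under 0.05 for some markers. These were Sox9 (0.00343), Glul (0.0335) and Slc1a3 (0.034) of Müller glia, Dct (0.0184) of the RPE and Aldh1l1 (0.0306) of astrocytes. The share of counts from mitochondrial genes was 13.6% in 2-DG replicate 4, 10.7% in control replicate 2 and 3.40% to 9.97% in the others. In whole explants, fewer cells of a type and less RNA per cell cannot be told apart.

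Promoter windows of 300 bases, 250 before and 50 after the start site, were available from RefSeq (GRCm38.p6) for 8 of the 9 members. Acat1 had none, and Bdh1 had 2, at separate start sites. The windows printed are those for the closest pair of genes in this group, for the member with the smallest p-value, and for the gene of the committed step of the carnitine shuttle. Hadha and Hadhb lie head to head on chromosome 5, with RefSeq start sites 273 bases apart, so that their windows share 228 bases. These shared bases are in capitals in the window of Hadhb. In the window of Cpt1a the capitals mark the nuclear receptor core motif AGGTCA, read on the minus strand, and the window of Oxct1 held no match to any motif searched.
Hadhb, plus strand, chr5:30155003-30155302: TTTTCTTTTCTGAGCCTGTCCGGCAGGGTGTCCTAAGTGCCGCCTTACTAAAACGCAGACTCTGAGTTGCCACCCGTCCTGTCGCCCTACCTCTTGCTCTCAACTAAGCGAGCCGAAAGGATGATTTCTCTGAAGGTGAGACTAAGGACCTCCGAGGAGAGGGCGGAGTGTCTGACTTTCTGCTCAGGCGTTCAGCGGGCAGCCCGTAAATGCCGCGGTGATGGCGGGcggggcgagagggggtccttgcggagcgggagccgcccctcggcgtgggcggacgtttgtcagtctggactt
Cpt1a, plus strand, chr19:3323051-3323350: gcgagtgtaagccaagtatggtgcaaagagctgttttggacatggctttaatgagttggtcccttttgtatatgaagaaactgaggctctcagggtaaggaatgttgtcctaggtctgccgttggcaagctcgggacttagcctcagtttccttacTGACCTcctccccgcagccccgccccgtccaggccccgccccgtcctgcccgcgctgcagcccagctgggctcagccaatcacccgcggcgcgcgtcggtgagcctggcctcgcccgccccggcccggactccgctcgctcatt
Oxct1, plus strand, chr15:4026178-4026477: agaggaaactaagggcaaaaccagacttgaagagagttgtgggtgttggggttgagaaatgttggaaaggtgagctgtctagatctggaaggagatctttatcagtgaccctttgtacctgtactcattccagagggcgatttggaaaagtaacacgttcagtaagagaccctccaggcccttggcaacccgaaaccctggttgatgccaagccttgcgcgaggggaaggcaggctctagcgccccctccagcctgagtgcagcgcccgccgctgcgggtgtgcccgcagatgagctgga

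These windows were searched on both strands for 6 motifs. The core motif AGGTCA was present in 16.3% of 32851 windows of the same length and, among the members, in those of Cpt1a and Acadm. The GC box GGGCGG was present in 35.7% of all windows and in those of Cpt1a, Cpt2, Acadl, Hadha and Hadhb and 1 of the 2 windows of Bdh1. The only GC box of Hadha lies in the stretch shared with Hadhb and is the same site as a box of Hadhb. G and C made up 48.3% to 70.3% of the member windows, beside a median of 52.7% over all windows, and the shares of all windows were not matched for this. The PPAR and RXR element, which is AGGTCA repeated after 1 base (0.0396% of all windows), the ERR element TCAAGGTCA (0.423%), the NRF1 element (4.6%) and the cyclic AMP element TGACGTCA (1.79%) had no match in any member window. The PPAR and RXR element and the ERR element both contain the core motif. A match is a run of letters and not a bound site.

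No member passed the threshold in the comparison of 2-DG with control explants. With edgeR's quasi-likelihood test and Benjamini-Hochberg adjustment over all genes tested, 0 of 9 members had an adjusted p under 0.05, and this was so of 0 genes (0.0%) in the whole table. The smallest adjusted p was 0.653 among the members and 0.181 among all genes. At an unadjusted p under 0.05 the test took 1526 of all genes (7.25%) and 1 of 9 members, Oxct1, which was lower in 2-DG explants, a direction that 4.83% of all genes had at this p. Other tools made more calls over the whole table, with 284 genes by DESeq2, 1222 by limma-voom with sample quality weights and 693 with 2 surrogate variables, but none of these calls was a member. The median log2 fold change of the 9 members was 0.02, beside -0.01 over all genes, with 5 above 0 and 4 below. None of the members had groups that did not overlap, which was the case for 2.93% of all genes (1.52% higher and 1.41% lower with 2-DG). In the authors' own scaling those of Oxct1 did not overlap, as for 2.39% of the genes in that table (1.18% lower with 2-DG). The plot of members by library shows how much of this spread lay within the groups.

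**Figure D1:**
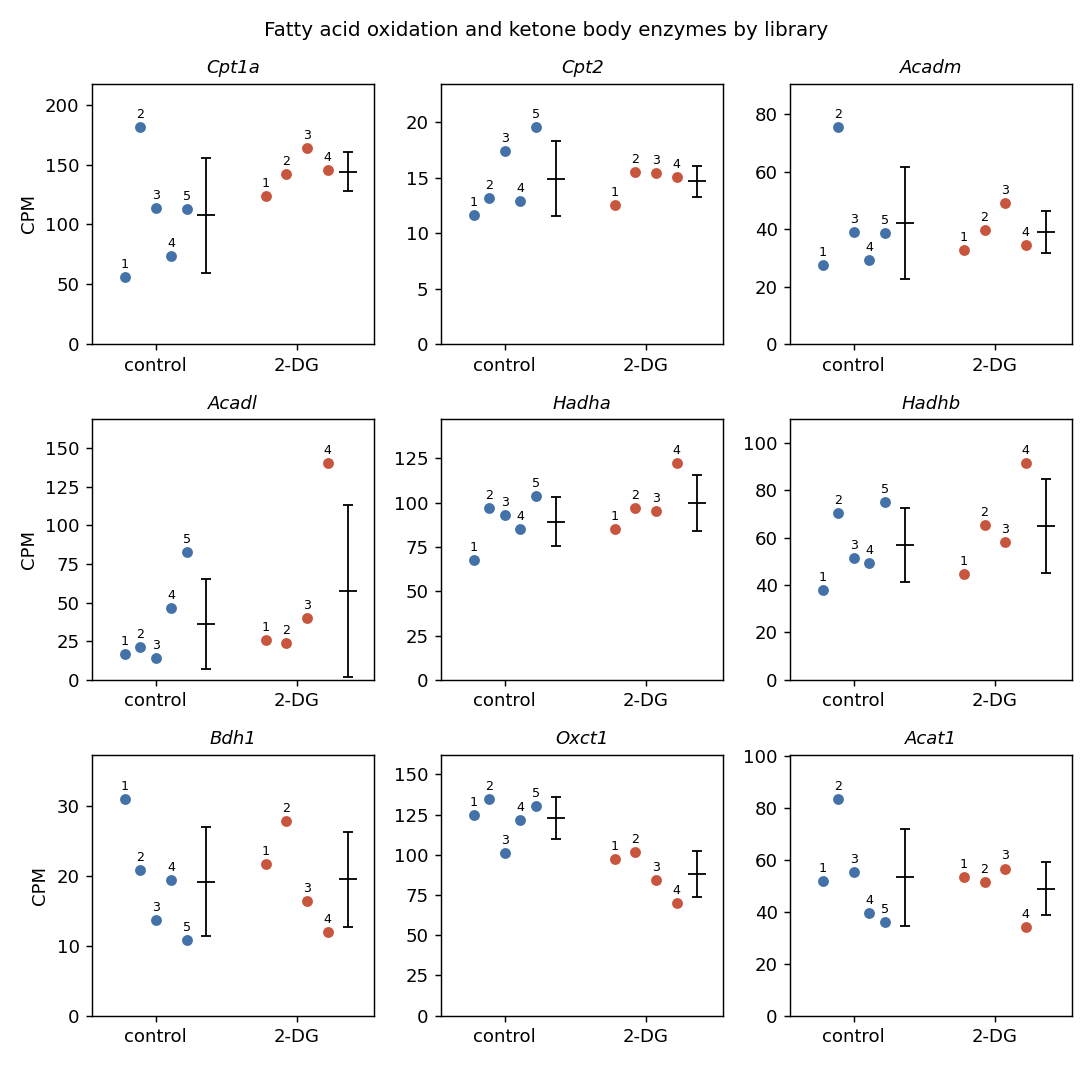
CPM of the 9 enzymes (y axis, from 0) in 5 control libraries (blue) and 4 2-DG libraries (red), with replicate numbers above the points and the mean ± SD beside each group. Oxct1 was below the control mean in all 4 2-DG libraries, while Cpt1a, Acadm and Acat1 were highest in control replicate 2 and Acadl, Hadha and Hadhb in 2-DG replicate 4.

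Cpt1a (ENSMUSG00000024900, chr19:3322334-3385733 on GRCm38) makes the carnitine esters at the outer mitochondrial membrane and is the committed step of long-chain fatty acid entry. Its level was 56.2, 181, 113, 73.8 and 113 CPM in control replicates 1 to 5. In 2-DG replicates 1 to 4 it was 124, 142, 164 and 146 CPM. All 4 2-DG libraries lay above 4 of the 5 controls, and control replicate 2 lay above them all. In the authors' scaling control replicate 5, at 123.8 CPM, also lay above 2-DG replicate 1, at 122.7 CPM, and per length 2-DG replicate 4 lay below 3 controls. The mean was 108 ± 48.2 CPM (SD, n = 5) in controls and 144 ± 16.4 CPM (n = 4) with 2-DG, so that the controls were the more scattered group. This gave a log2 fold change of 0.42 (SE 0.31, edgeR unadjusted p = 0.207, adjusted p = 0.799).

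The value of Cpt1a moved with single control libraries. It was 0.26 without control replicate 1 and 0.27 without control replicate 4. Without control replicate 2 the log2 fold change was 0.69 (SE 0.25, edgeR unadjusted p = 0.0221, adjusted p = 0.408), and the groups did not overlap, which was so neither in the authors' scaling nor per length. Without it, 2.92% of all genes were higher in 2-DG explants at an unadjusted p under 0.05, and 2.57% were higher with no overlap. With all libraries it was 0.64 with limma-voom (unadjusted p = 0.0115) and 0.69 with 2 surrogate variables (unadjusted p = 0.0132). The limma-voom fit gave control replicate 2 a quality weight of 0.275, within a range of 0.263 to 4.18 over the libraries. Over all 20 alternative settings the log2 fold change lay between 0.26 and 0.69 and was above 0 in every one, with an edgeR, DESeq2 or limma adjusted p of 0.0929 or more. Control replicate 2 was also the library with the highest rod marker sum, whose part in the Cpt1a level was not tested.

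Cpt2 (chr4:107903981-107923610), which takes the carnitine off again inside the mitochondrion, had nearly the same mean in both groups. It had 11.6, 13.2, 17.4, 12.9 and 19.6 CPM in the controls and 12.6, 15.6, 15.5 and 15.1 CPM in the 2-DG libraries. The 2-DG values lay inside the control range, with a log2 fold change of -0.02 (SE 0.24, edgeR adjusted p = 0.987).

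Cpt1a has related genes, Cpt1b, known from muscle, and Cpt1c, known from neurons. Cpt1a made up 43.6%, 62.4%, 66.1%, 60.8% and 76.9% of the counts of the 3 Cpt1 genes in control replicates 1 to 5 and 61.6%, 65.8%, 72.6% and 82.4% with 2-DG. The groups overlapped widely. The difference of the means, 70.6% ± 9.06 (n = 4) against 62.0% ± 12.03 (n = 5), was 8.61 percentage points (exact two-sided permutation test, p = 0.302, Benjamini-Hochberg p = 0.603 over 2 such tests). The smallest p this design allows is 0.00794. Per length, in TPM (counts divided by transcript length and scaled to the same total in each library) of the control libraries, Cpt1a had 60.01 ± 21.05, Cpt1c 38.9 ± 17.6 and Cpt1b 10.5 ± 2.37 TPM (n = 5). Cpt1b (log2 fold change 0.21, edgeR adjusted p = 0.88), Cpt1c (-0.14, adjusted p = 0.95) and the carnitine carrier Slc25a20 (0.03, adjusted p = 0.988) did not pass the test. Cpt1b overlaps the coding gene Gm44502 on the same strand over 9459 bases, whose part in the Cpt1b level was not tested.

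Beta-oxidation opens with acyl-CoA dehydrogenases that differ in the chain length they take. Acadm (chr3:153922357-153944632), which takes medium chains, had 27.6, 75.6, 38.9, 29.1 and 38.8 CPM in the controls. With 2-DG it had 32.7, 39.6, 49.0 and 34.5 CPM. Control replicate 2 was far above the other 8 libraries, which ran together. Its log2 fold change was -0.11 (SE 0.31, edgeR adjusted p = 0.948) with this library and 0.21 without. With all libraries it was 0.18 with limma-voom, which gave control replicate 2 a quality weight of 0.275, and 0.16 with 2 surrogate variables. The sign thus changed with the library and with the setting, and the limma-voom value is not independent of control replicate 2.

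Acadl (chr1:66830839-66863277), which takes long chains, was the most variable member. It had 16.9, 21.2, 13.9, 46.5 and 82.7 CPM in the controls and 25.5, 23.5, 40.2 and 140.4 CPM in the 2-DG libraries. A single library in each group, control replicate 5 and 2-DG replicate 4, was well above the rest of its group. The coefficient of variation was 80.1% in controls and 97.2% with 2-DG, against 10.6% and 16.2% for Oxct1. A log2 fold change of 0.66 (SE 0.66, edgeR adjusted p = 0.839) went to -0.29 without 2-DG replicate 4 and to 1.212 without control replicate 5. It was 0.88 with 2 surrogate variables (SE 0.27, edgeR unadjusted p = 0.00933). The 3 libraries highest for Acadl, 2-DG replicate 4, control replicate 5 and control replicate 4, were also the 3 highest for the vessel and pericyte marker sum, at 2652, 2194 and 1225 CPM. None of the 9 vessel and pericyte markers passed the test between groups, and the part of these cells in the Acadl level was not tested.

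Hadha and Hadhb encode the alpha and beta subunits of the mitochondrial trifunctional protein, which carries out the later steps on long chains. Hadha (chr5:30118304-30155162) had 67.8, 96.9, 92.9, 85.3 and 104 CPM in the controls and 85.2, 97.0, 95.1 and 123 CPM with 2-DG. Hadhb (chr5:30155248-30184593) had 37.8, 70.2, 51.2, 49.4 and 75.2 CPM in the controls and 44.6, 65.4, 58.2 and 91.5 CPM with 2-DG. Both were lowest in control replicate 1 and highest in 2-DG replicate 4. Hadha had a log2 fold change of 0.16 (SE 0.20, edgeR adjusted p = 0.866), which was 0.049 without 2-DG replicate 4 and 0.074 without control replicate 1. For Hadhb it was 0.19 (SE 0.27, edgeR adjusted p = 0.883), and -0.02 without 2-DG replicate 4.

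Of the 36 pairs of members, Hadha and Hadhb, the neighbours with the shared promoter window printed above, had the most similar profiles over the 9 libraries. The root mean square difference of their standardised log2 CPM was 0.322, with 0.661 for the next pair, Cpt1a and Acadm. All points share their libraries, so this is a description. The log2 ratio of Hadha to Hadhb within a library was 0.68 ± 0.20 (n = 5) in controls and 0.66 ± 0.22 (n = 4) with 2-DG. The difference of -0.03 was smaller than the spread in either group (exact two-sided permutation test, p = 0.849), and it was -0.16 with counts summed from transcripts (exact p = 0.0556).

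The ketone body enzymes act in a chain: Bdh1 turns beta-hydroxybutyrate into acetoacetate, Oxct1 joins acetoacetate to coenzyme A taken from succinyl-CoA, and Acat1 splits the product into acetyl-CoA. Their summed level was 208, 239, 170.3, 181 and 177 CPM in the controls and 173, 181, 157 and 116 CPM with 2-DG. The groups overlapped, with 2-DG replicate 2 above 3 of the 5 controls, and the sum was not tested.

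Oxct1 (ENSMUSG00000022186, chr15:4026383-4155344) commits ketone bodies to use as fuel. It had 124.9, 134.9, 101.3, 121.7 and 130.6 CPM in the controls. With 2-DG it had 97.4, 101.5, 84.2 and 69.9 CPM. All 4 2-DG libraries were below the control mean, and the groups overlapped only through control replicate 3 and 2-DG replicate 2, whose values were almost equal. In the authors' scaling the lowest control was at 104.7 CPM and the highest 2-DG library at 98.7 CPM, with no overlap, where 1.18% of the genes in that table were lower with no overlap. Per length the groups overlapped, with 2-DG replicates 1 and 2 (77.8 and 78.8 TPM) above control replicates 2 and 5 (75.7 and 75.5 TPM). The mean was 123 ± 13.0 CPM (n = 5) in controls and 88.3 ± 14.3 CPM (n = 4) with 2-DG. The log2 fold change was -0.47 (SE 0.19), a ratio of 0.720, with an edgeR unadjusted p of 0.0302 and an adjusted p of 0.653.

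The direction of Oxct1 held in all 20 alternative settings, with log2 fold changes between -0.56 and -0.28 and unadjusted p-values between 0.0113 and 0.0798, of which 13 were under 0.05. The Müller glia marker sum, also below its control mean in all 4 2-DG libraries, was not tested for a part in this. The smallest adjusted p in these settings, from edgeR, DESeq2 or limma, was 0.134. Leaving out 2-DG replicate 4, the lowest library, gave -0.38 (edgeR unadjusted p = 0.0732). Oxct1 overlaps the opposite-strand gene BC037032 over 1023 bases, and whether strand was used in counting is not stated. BC037032 itself had 8.51 CPM in controls and 4.23 CPM with 2-DG, and the part of its reads in the Oxct1 level was not tested.

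Bdh1 (chr16:31422280-31458901) had 31.1, 20.8, 13.7, 19.4 and 10.9 CPM in the controls and 21.7, 27.9, 16.5 and 12.04 CPM with 2-DG. The 2-DG values lay inside the control range, and the log2 fold change was 0.02 (SE 0.35, edgeR adjusted p = 0.991). Bdh1 overlaps Gm15743 (0.902 CPM in controls and 0.996 CPM with 2-DG) on the opposite strand over 1901 bases. Acat1 (chr9:53580522-53610382) had 52.1, 83.6, 55.2, 39.4 and 35.99 CPM in the controls and 53.4, 51.6, 56.7 and 34.2 CPM with 2-DG. Its highest value was again in control replicate 2, and the log2 fold change was -0.12 (SE 0.28, edgeR adjusted p = 0.931) with that library and 0.10 without it.

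**Figure D2:**
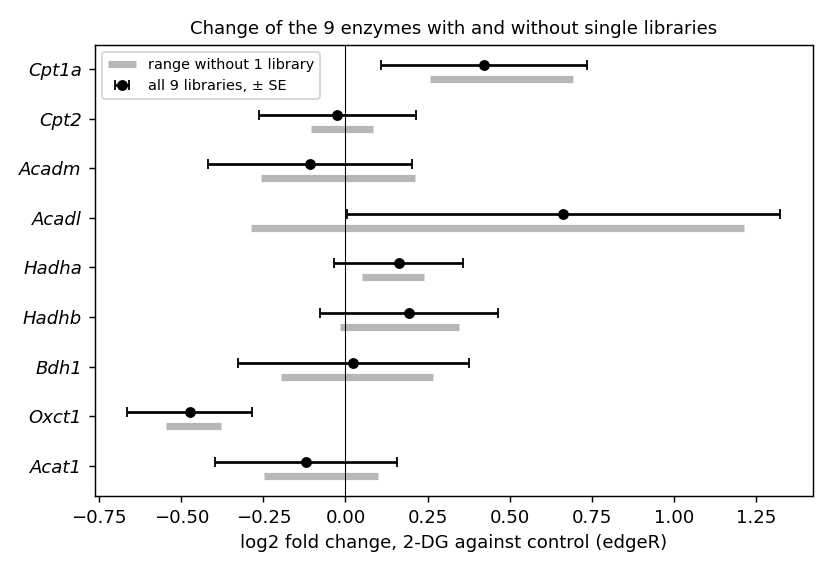
Log2 fold change of 2-DG against control (x axis, edgeR) for the 9 enzymes, with points and bars for the estimate ± SE from all 9 libraries and grey bars for the range when any 1 library is left out. The grey bars of Cpt1a, Hadha and Oxct1 stay on one side of 0, and that of Acadl runs from -0.29 to 1.212.

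Levels were compared between members per length, as TPM in the control libraries. Hadha (85.8 ± 11.5 TPM) and Oxct1 (84.8 ± 11.29) were the most abundant, followed by Hadhb (62.4 ± 9.00), Cpt1a (60.01 ± 21.05), Acadm (56.7 ± 19.6), Acat1 (41.9 ± 13.6), Acadl (37.9 ± 26.5), Bdh1 (22.4 ± 11.1) and Cpt2 (14.8 ± 3.89). Between neighbours in this order, the control ranges overlapped for every pair except Oxct1 and Hadhb. With 2-DG the mean TPM of Oxct1 was 64.5 ± 22.1 (n = 4) and that of Hadha 94.2 ± 13.3, and Oxct1 was below its control mean in all 4 libraries. Bdh1 and Cpt2, the first enzyme of ketone body use and the second of the carnitine shuttle, were the members with the lowest control means. Acadl, the next member above them, was higher than Bdh1 in 5 of the 9 libraries.

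**Figure D3:**
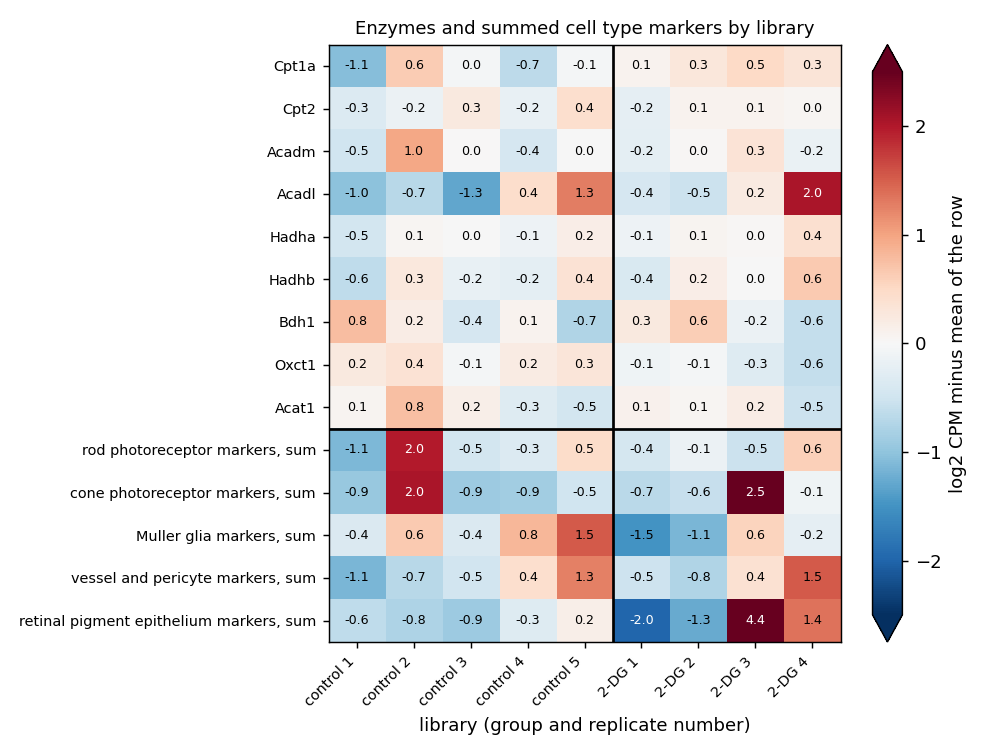
Log2 CPM minus the mean of its row (colour, number in each cell) for the 9 enzymes (above the line) and the summed markers of 5 cell types (below it) in the 9 libraries, with control libraries on the left. Acadl and the vessel and pericyte sum were highest in 2-DG replicate 4 and control replicate 5, rod and Acadm values were highest in control replicate 2, and the RPE sum was highest in 2-DG replicate 3.

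Transcripts of the members were listed in a separate table, which held 59 of them, 41 with enough counts to test. At an unadjusted p under 0.05 the same edgeR test took 1 of the 41, the minor retained-intron transcript Hadhb-206 (1.73% of the gene in controls and 3.03% with 2-DG, named after its values were seen), and 3.45% of all 62900 transcripts, and none had an adjusted p under 0.05. Cpt1a, Cpt2, Acadl, Oxct1 and Acat1 each came from 1 main transcript that held 93.4% or more of the gene in controls, on average. Hadha was divided between Hadha-201 (54.7% ± 6.62 in controls, n = 5), annotated as a processed transcript, and the coding Hadha-205 (33.2% ± 6.99). Bdh1 was the most divided member. Its transcript Bdh1-207, annotated as a target of nonsense-mediated decay, held 9.76%, 34.3%, 21.1%, 33.7% and 26.9% of the gene in control replicates 1 to 5 and 10.4%, 12.4%, 18.5% and 14.7% with 2-DG. Only control replicate 1 was as low as the 2-DG libraries, and the log2 fold change of this transcript was -0.97 (SE 0.45, edgeR unadjusted p = 0.0576, adjusted p = 1.00).

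The rest of the pathway was read from 6 lists with 68 genes, of which 65 could be tested. At an unadjusted p under 0.05 the edgeR test took 7 of the 65, 3 higher and 4 lower with 2-DG, beside 7.25% of all genes (2.42% higher, 4.83% lower), and none had an adjusted p under 0.05, the smallest being 0.51. In these lists 38 genes had a log2 fold change above 0 and 27 below, with a median of 0.03. In 3 genes, Hsd17b4, Etfdh and Echs1, every 2-DG library lay above every control, beside 1.52% of all genes. Echs1, which hydrates enoyl-CoA, is named after its values were seen (log2 fold change 0.32, edgeR unadjusted p = 0.08).

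**Figure D4:**
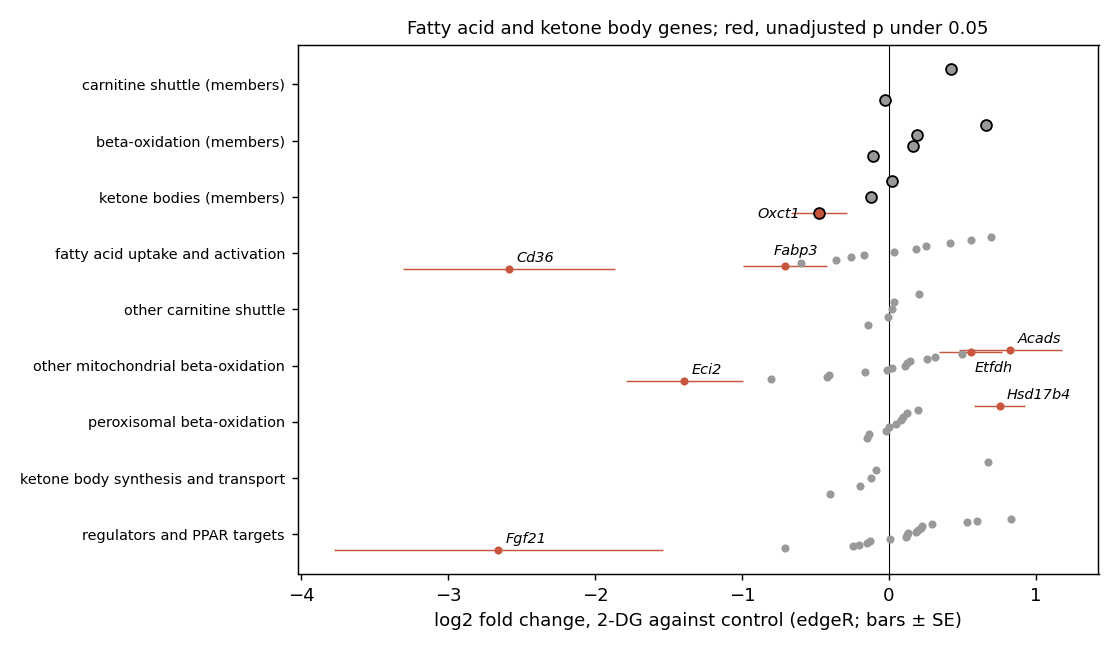
Log2 fold change of 2-DG against control (x axis, edgeR) for each tested gene, by list (y axis), with members outlined in black and red points and bars (± SE) for genes with an unadjusted p under 0.05. The red points are Hsd17b4, Acads and Etfdh to the right of 0, and Cd36, Fgf21, Eci2, Fabp3 and Oxct1 (-0.47) to the left, with the members lying between Oxct1 and Acadl (0.66).

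Among 5 tested genes of ketone body synthesis and transport, none had an unadjusted p under 0.05. Slc16a7, a monocarboxylate transporter of neurons, had 15.8, 4.15, 18.8, 11.9 and 0.420 CPM in the controls and 23.3, 21.6, 18.2 and 2.20 CPM with 2-DG. It was lowest in control replicate 5 and 2-DG replicate 4, the libraries with the highest vessel and pericyte sums and Acadl levels, and its log2 fold change was 0.68 (SE 0.87, edgeR adjusted p = 0.871). It was 0.36 without control replicate 5, 1.04 without 2-DG replicate 4 and 0.040 with 2 surrogate variables. The part of vessel cells in that level was not tested. The transporters Slc16a6 (-0.20, edgeR adjusted p = 0.901) and Slc16a1 (-0.12, adjusted p = 0.911) did not pass the test, nor did Bdh2 (-0.40, adjusted p = 0.831). When any 1 library was left out, Slc16a6 lay between -0.42 and -0.0059 and Bdh2 between -0.54 and -0.19. Slc16a6 overlaps Amz2 on the opposite strand over 1959 bases. Oxct2a and Oxct2b, testis forms of Oxct1, were too low to test.

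Peroxisomal beta-oxidation shortens very long chains, and 1 of its 10 genes had an unadjusted p under 0.05. Hsd17b4, the bifunctional enzyme of its middle steps, had 39.0, 28.1, 36.4, 34.3 and 38.7 CPM in the controls and 63.2, 61.9, 56.4 and 56.8 CPM with 2-DG. These groups were wide apart and tight, with means of 35.3 ± 4.45 and 59.6 ± 3.48 CPM. The log2 fold change was 0.75 (SE 0.17, edgeR unadjusted p = 0.00128, adjusted p = 0.51), and it lay between 0.67 and 0.79 in all 20 alternatives. The adjusted p was 0.000521 with DESeq2, 0.0105 with limma-voom and 0.0191 with 2 surrogate variables. Crot (0.20, edgeR adjusted p = 0.88) and Scp2 (0.12, adjusted p = 0.914) did not pass. Scp2 overlaps Podn on the same strand over 52607 bases.

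In the rest of mitochondrial beta-oxidation, 3 of 15 genes had an unadjusted p under 0.05. Etfdh, which hands the electrons of beta-oxidation to the respiratory chain, had 19.0, 33.2, 26.8, 23.4 and 30.02 CPM in the controls and 34.3, 37.1, 38.5 and 46.0 CPM with 2-DG. Its groups did not overlap, by a narrow margin, with a log2 fold change of 0.56 (SE 0.21, edgeR unadjusted p = 0.0253, adjusted p = 0.634). Its adjusted p was 0.251 with DESeq2, 0.0457 with limma-voom and 0.035 with 2 surrogate variables, and its edgeR unadjusted p was 0.00969 to 0.0813 when any 1 library was left out. Acads, the short-chain dehydrogenase, was low, with 2.52 to 6.27 CPM in the controls and 6.08 to 10.9 CPM with 2-DG, and had a log2 fold change of 0.83 (SE 0.35, unadjusted p = 0.0394). Its groups overlapped slightly, and its edgeR unadjusted p was 0.0302 to 0.114 when any 1 library was left out.

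Eci2, an isomerase needed for unsaturated fatty acids, was lower in every 2-DG library than in 4 of the 5 controls. It had 294, 112, 277, 447 and 475 CPM in the controls and 98.2, 150.4, 89.9 and 149.8 CPM with 2-DG. Control replicate 2 lay among the 2-DG libraries. Eci2 had a log2 fold change of -1.39 (SE 0.40, edgeR unadjusted p = 0.00533, adjusted p = 0.524), and -1.61 without control replicate 2 (edgeR adjusted p = 0.066). With all libraries its adjusted p was 0.0583 with DESeq2, 0.0139 with limma-voom and 0.00526 with 2 surrogate variables.

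Among the genes of fatty acid uptake and activation, 2 of 12 had an unadjusted p under 0.05, both lower with 2-DG. Cd36, a membrane protein that takes up long-chain fatty acids, had 32.6, 2.43, 38.7, 70.1 and 53.1 CPM in the controls and 4.58, 8.06, 4.06 and 9.47 CPM with 2-DG. Again control replicate 2 stood apart from the other controls, here below every 2-DG library. The log2 fold change was -2.59 (SE 0.72, edgeR unadjusted p = 0.00464, adjusted p = 0.524), and -2.89 without control replicate 2, with an edgeR adjusted p of 0.0386. With all libraries the adjusted p of Cd36 was 0.0202 with DESeq2, 0.0186 with limma-voom and 0.00343 with 2 surrogate variables. Fabp3, a fatty acid carrier of the cytosol, had 27.1, 15.0, 18.8, 30.3 and 36.3 CPM in the controls and 18.7, 15.4, 14.5 and 13.9 CPM with 2-DG (log2 fold change -0.71, SE 0.29, edgeR unadjusted p = 0.0311, and 0.00575 to 0.0762 when any 1 library was left out). It overlaps Zcchc17 on the opposite strand over 81 bases. The related Fabp5 had a log2 fold change of 0.41 (edgeR unadjusted p = 0.0965).

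**Figure D5:**
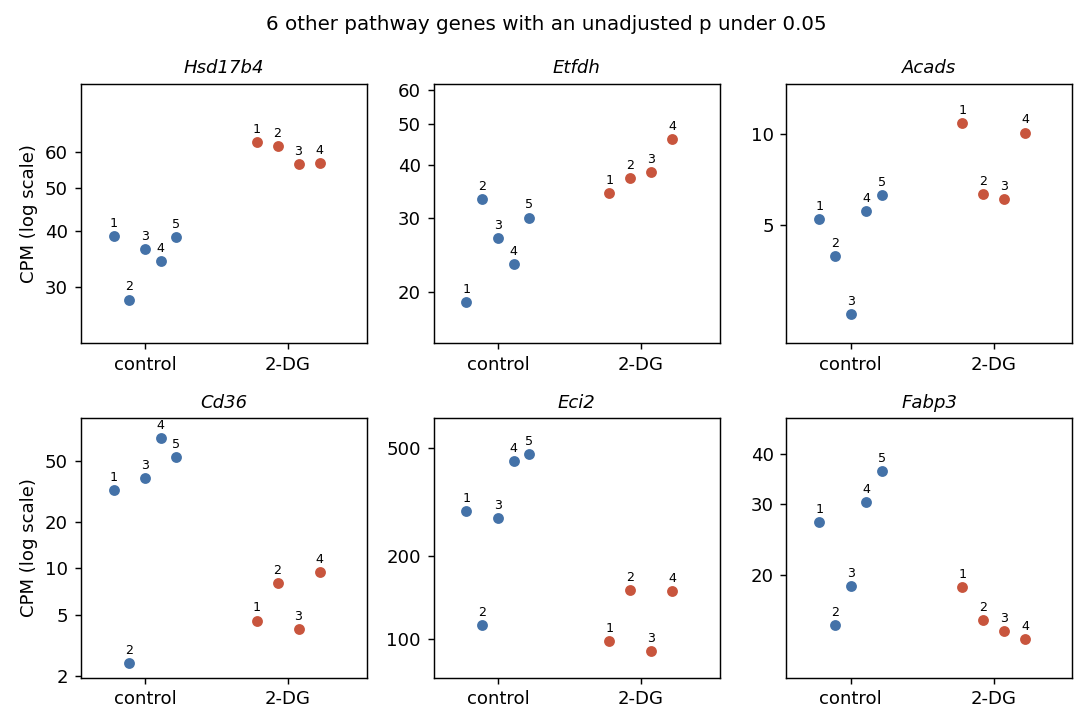
CPM on a log scale (y axis) of 6 other pathway genes with an unadjusted p under 0.05 in 5 control (blue) and 4 2-DG (red) libraries, with replicate numbers above the points. The groups of Hsd17b4 and Etfdh do not overlap, and control replicate 2 lies at or near the 2-DG values for Cd36, Eci2 and Fabp3.

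Among regulators and targets of PPAR factors, 1 of 18 tested genes had an unadjusted p under 0.05. Fgf21, a stress and fasting hormone, was at 0.654, 0, 0.763, 1.66 and 2.39 CPM in the controls and 0, 0.0933, 0.0371 and 0.515 CPM with 2-DG, from 73.6 estimated counts or fewer in each library. Its log2 fold change was -2.66 (SE 1.12, edgeR unadjusted p = 0.0377, adjusted p = 0.67), and -4.35 without 2-DG replicate 4 (edgeR unadjusted p = 0.0064, adjusted p = 0.301). With all libraries its adjusted p was 0.311 with DESeq2, 0.018 with limma-voom and 0.0363 with 2 surrogate variables. Plin2, which coats lipid droplets, had 42.7 to 237 CPM in the controls and 114 to 446 CPM with 2-DG (log2 fold change 0.83, SE 0.54, edgeR adjusted p = 0.775), and 0.16 without 2-DG replicate 4, 1.24 without control replicate 5 (edgeR unadjusted p = 0.0354) and 1.12 with the replicate number as a block (edgeR unadjusted p = 0.00522). The adjusted p of Plin2 was 0.0129 with 2 surrogate variables, 0.678 with DESeq2 and 0.578 with limma-voom. The uncoupling protein Ucp2 had a log2 fold change of 0.53 (edgeR adjusted p = 0.756), and 0.19 without 2-DG replicate 3.

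The genes whose standardised log2 CPM over the 9 libraries lay closest to the mean profile of the 9 members were St6galnac2 (root mean square difference 0.289), Gm49539 (0.345), Mmd2 (0.386), Tmem179b (0.388) and Impg1 (0.391). All 5 were highest in control replicate 2. Closest to Cpt1a alone were Wdr76 (0.249), Zfyve26 (0.347), Ccdc58 (0.423), Pik3r6 (0.451) and Gm27176 (0.451). None of these 10 genes had an edgeR unadjusted p under 0.05 for 2-DG against control, and Zfyve26 came nearest at 0.0538.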

How the data were processed

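RNA of 9 retinal explant libraries was made into stranded total RNA libraries (4 ng of RNA, 13 cycles of PCR, read pairs of 101 bases). The authors deposited estimated counts per gene and per transcript, not scaled between libraries. The submitters' processing notes name kallisto and GRCm38, and how gene values were made from transcripts is not given in the sources used here. Their CPM table, scaled between libraries in a way not given, is a deposited signal used only as a check: all 9 members were listed, and their log2 ratios between groups differed from those here by at most 0.104. Results of 2 genes of the ketone body list are not reported here, and its counts leave them out. A deposited table with the authors' log2 fold changes, F statistics and p-values was not used.

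The members and gene lists were chosen with earlier results of these data known. Groups came from the sample titles and the treatment label. Estimated counts were rounded, filtered with filterByExpr, scaled by TMM and tested with edgeR 4.0.16 (glmQLFit with legacy=TRUE and robust=FALSE, glmQLFTest) in R 4.3.3 on all 9 libraries, with group as the only term and Benjamini-Hochberg adjustment over 21049 genes, at a threshold of 0.05. SEs were obtained from the F statistic. CPM use the TMM-scaled totals. TPM were made from estimated counts per transcript and the annotated lengths of GENCODE M21. Ratios within libraries had exact permutation tests. The edgeR step was tested on simulated data. Named were all members, those of each other list with an unadjusted p under 0.05 or the 3 smallest p-values, the 5 nearest profiles, and transcripts with at least 10% of a gene. Of the other pathway genes, Slc16a1 and Echs1 were named outside this rule. Alternatives were other scalings, no filter, robust=TRUE, DESeq2 1.42.0, limma-voom (limma 3.58.1), 2 surrogate variables (sva 3.50.0), counts summed from transcripts, a replicate block, and leaving out each library. The limma-voom fit used sample quality weights, lowest for 2-DG replicate 4 (0.263) and control replicate 2 (0.275). Leaving out control replicate 2 and 2-DG replicate 4 together, and running all settings on the other pathway genes, were added after the data had been seen.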

Additional observations from a re-analysis of the deposited data

Results flagged for a closer look

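Of 58 groups of values, 5 had 1 library far from the others by Dixon's criterion, where chance gives about 1 in 20 groups, or 2.9. Among the members, Cpt2 was at 12.6 CPM in 2-DG replicate 1 and at 15.1 to 15.6 CPM in the other 2-DG libraries. Acadm was at 75.6 CPM in control replicate 2 and at 27.6 to 38.9 CPM in the other controls. Acadl was at 140.4 CPM in 2-DG replicate 4 and at 23.5 to 40.2 CPM in the other 2-DG libraries.

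The same library held the highest values of Slc25a20, at 48.4 CPM beside 17.8 to 22.2 CPM, and of Plin2, at 446 CPM beside 114 to 160.0 CPM.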

How the results depend on the processing

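No member had an adjusted p under 0.05 in any of 20 alternatives, and Cpt1a, Hadha and Oxct1 kept their direction in all of them, as did 12 of 18 other named genes. The count of genes called was 284 with DESeq2, 1222 with limma-voom, 693 with 2 surrogate variables and 177 without control replicate 2 and 2-DG replicate 4, a setting chosen after the data had been seen, and it was 0 to 16 when 1 library was left out (16 without control replicate 2, 2 without 2-DG replicate 4). Members at an unadjusted p under 0.05 numbered 0 with no filter (7.08% of all genes) and with counts summed from transcripts (7.17%), 2 with limma-voom (26.0% of all genes), 4 with 2 surrogate variables (Cpt1a, Acadl and Hadhb higher and Oxct1 lower with 2-DG, beside 19.2% of all genes) and 0 to 2 without single libraries (4.63% to 12.9%). The median log2 fold change of the members was -0.05 to 0.19 without single libraries.

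With limma-voom the log2 fold changes changed sign to 0.025 for Cpt2, 0.18 for Acadm, -0.18 for Acadl, 0.20 for Acat1, 0.44 for Cpt1c, -0.26 for Slc25a20 and 0.14 for Slc16a6. With 2 surrogate variables they did so to 0.16 for Acadm and -0.064 for Bdh1, with no filter to 0.0040 for Cpt2, with library size only to -0.0092 for Bdh1 and -0.067 for Slc25a20, with upper-quartile scaling to -0.052 for Bdh1 and -0.069 for Slc25a20, and with counts summed from transcripts to -0.11 for Bdh1, -0.046 for Cpt1b, -0.00052 for Slc25a20 and -0.25 for Slc16a7. Without control replicate 2 and 2-DG replicate 4 they were 0.27 for Acadm, -0.43 for Acadl, 0.24 for Acat1, 0.43 for Cpt1c and -0.32 for Slc25a20. The cause was not tested. Ranges that crossed 0 when 1 library was left out were -0.29 to 1.212 for Acadl, -0.26 to 0.21 for Acadm, -0.25 to 0.10 for Acat1, -0.20 to 0.27 for Bdh1, -0.11 to 0.083 for Cpt2, -0.017 to 0.35 for Hadhb, -0.35 to 0.14 for Cpt1c, -0.15 to 0.34 for Crot (0.36 without control replicate 2 and 2-DG replicate 4), -0.38 to 0.20 for Slc25a20 and -0.12 to 0.053 for the log2 ratio of Hadha to Hadhb. The percent of Cpt1a differed by 4.03 to 12.4 points.

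Replicate numbers gave no clear pairing of the libraries: deviations of same-numbered libraries correlated with r of 0.45, -0.15, 0.10 and 0.21. 2-DG replicate 1 correlated best with control replicate 1, and the other 2-DG libraries with controls of another number. With 4 pairs this cannot settle whether the libraries were collected in pairs. With the number as a block, on replicates 1 to 4, edgeR called 0 genes and had 1269 of 19891 (6.38%) at an unadjusted p under 0.05, among them 1 member, Acadl (log2 fold change 0.96, edgeR adjusted p = 0.689). The block gave 0.092 for Cpt2, -0.14 for Bdh1 and a log2 ratio difference of -0.080. Fgf21 had fewer estimated counts than any member.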
